A study of Mus musculus with 8 samples.

Results

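The genes described here are the replication-dependent histone genes of the mouse, taken as the table entries whose symbol begins with Hist1h, Hist2h, Hist3h or Hist4h. Of the 23845 entries, 64 carried such a name, and the 63 with a summed footprint count of at least 20 over the 4 Ribo-seq libraries were kept. They comprised 6 H1, 16 H2A, 17 H2B, 11 H3 and 13 H4 genes. The entry left out, Hist2h2be, had a summed footprint count of 15.1, and the lowest entry kept, Hist1h2ba, had 339. In GENCODE M21 (GRCm38, the assembly behind mm10), 52 of the genes lay on chromosome 13, 7 on chromosome 3, 3 on chromosome 11 and 1 on chromosome 6, and 1 of them, Hist3h2bb-ps, was annotated as a pseudogene.

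The libraries came from cultured mouse embryonic stem cells (mESC), which are pluripotent, at passages 5 to 10. The cells were either METTL5 KO, lacking the methyltransferase that modifies an adenosine of 18S ribosomal RNA, or WT. Each genotype had 2 Ribo-seq libraries, which hold mRNA fragments protected by single ribosomes and recovered from a sucrose gradient, and 2 RNA-seq libraries made from RNA of cells near confluence. No other allele or treatment is given, and neither the making of the knockout nor the number of clones is described in the labels, so it is not known whether the KO libraries stand for 1 clone. The replicates are called biological with no further detail, so a p-value here reflects only the spread among these 8 libraries. The footprint libraries held 8401463 to 11487964 counts and the RNA-seq libraries 152195 to 219567. Levels are given as CPM, a library's counts scaled to a common total, and 3 counts in a library equalled 0.261 to 0.357 CPM in footprints and 13.7 to 19.7 CPM in RNA-seq, which covers counting error only. Footprints on Mettl5 itself stood at 4.08 and 4.79 CPM in the KO libraries, against 41.2 and 45.9 CPM in the WT libraries (log2 fold change -3.27, SE 0.22, edgeR adjusted p = 0.00131). In RNA-seq, Mettl5 had 39 and 55 counts in KO, against 84 and 132 counts in WT, without overlap and without passing the test (-0.88, SE 0.32, adjusted p = 0.126). All 10 mESC markers were present in footprints, and their summed level was 7325 and 7150 CPM in KO, against 5748 and 7446 CPM in WT. The summed level of 10 fibroblast markers was 319 and 427 CPM in KO, against 134 and 73.4 CPM in WT, and 1 of the 7 tested, Col3a1, rose (3.72, adjusted p = 0.0272); their part in the results below was not tested.

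Replication-dependent histones package newly made DNA. Cells make them in S phase, from many near-identical, mostly intronless genes that sit in clusters and are switched on together by the coactivator NPAT. Their mRNAs end not in a poly(A) tail but in a short conserved hairpin, the stem loop, which the stem-loop binding protein SLBP holds through 3' processing, export, translation and decay. H2A and H2B form one dimer of the nucleosome, H3 and H4 the other, and H1 is the linker histone that binds where DNA enters and leaves the particle. Embryonic stem cells divide fast and spend much of their cycle in S phase.

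The stem loop is the element these mRNAs share, and 6 examples from H1, H2A, H3 and H4 genes are printed. The 16-base pattern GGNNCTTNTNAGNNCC was searched on the sense strand of the GENCODE M21 transcripts, downstream of the coding sequence, and was found for 42 of the 63 genes. In 41 of them it lay 25 to 62 bases after the last coding codon, and for Hist1h2bp no distance was obtained. Of the 21 genes without a match, 19 had fewer than 60 annotated bases there. The 42 matches held 8 distinct sequences, and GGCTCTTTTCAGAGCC alone accounted for 23. The capitals mark the 16 bases and the lower case the 5 bases on each side, 5' to 3' on the gene's strand, with GRCm38 coordinates.
Hist1h1c, chr13:23739507-23739532, plus strand: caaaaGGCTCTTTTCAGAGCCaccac
Hist1h2ad, chr13:23574890-23574915, plus strand: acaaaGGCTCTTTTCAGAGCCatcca
Hist1h3c, chr13:23745042-23745067, minus strand: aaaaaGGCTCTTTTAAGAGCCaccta
Hist1h4n, chr13:21831793-21831818, minus strand: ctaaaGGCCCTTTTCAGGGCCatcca
Hist1h4j, chr13:21735432-21735457, plus strand: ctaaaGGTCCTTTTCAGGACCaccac
Hist4h4, chr6:136803993-136804018, minus strand: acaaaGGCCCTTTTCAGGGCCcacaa
The H1 and H2A examples carried the same 16 bases. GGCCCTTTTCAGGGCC occurred in 6 genes, all of them H4 genes, among them Hist1h4n and Hist4h4. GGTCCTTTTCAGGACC, shown for Hist1h4j, occurred in 2 genes, also H4.

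Divergent gene pairs are the other shared feature. In 11 cases an H2A gene and an H2B gene stood head to head with 173 to 306 bases between their annotated starts, 10 of them on chromosome 13. The remaining pair, on chromosome 11, joins Hist3h2a with the pseudogene Hist3h2bb-ps. The windows of 250 bases before the RefSeq start (GRCm38.p6) of Hist1h2ai and Hist1h2aa are printed. The first lies between the members of the pair with the widest gap in fold change. The second lies between the members of a pair with negative fold changes for both genes, as given below. Capitals mark CCAAT (the CCAAT box), TATAAA (the TATA box) and ATTTGCAT (the octamer known for H2B promoters), or the reverse complement of one of these.
Hist1h2ai, chr13:21716162-21716411, plus strand: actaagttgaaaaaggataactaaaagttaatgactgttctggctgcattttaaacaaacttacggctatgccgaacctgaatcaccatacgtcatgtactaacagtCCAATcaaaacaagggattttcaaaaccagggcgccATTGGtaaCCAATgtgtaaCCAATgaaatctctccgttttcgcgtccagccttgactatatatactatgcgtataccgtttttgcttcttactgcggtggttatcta
Hist1h2aa, chr13:23934187-23934436, plus strand: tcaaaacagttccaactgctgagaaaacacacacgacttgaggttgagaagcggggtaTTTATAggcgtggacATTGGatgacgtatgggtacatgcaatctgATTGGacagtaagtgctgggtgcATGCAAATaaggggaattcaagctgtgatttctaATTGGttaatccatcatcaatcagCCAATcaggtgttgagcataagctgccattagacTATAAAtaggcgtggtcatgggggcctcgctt
RefSeq promoters were found for 58 of the 63 genes by transcript accession. On either strand, CCAAT was present in 48 of the 58 (82.8%), against 33.8% of all 32851 promoters of the same length. TATAAA was present in 29 of the 58, against 12.4% of all promoters, and the octamer in 14 (24.1%), against 1.60%. All 14 promoters with an octamer belonged to H2A or H2B genes, 7 of 16 H2A and 7 of 15 H2B promoters. CCAAT was present in all 6 H1, 16 H2A and 15 H2B promoters and in 8 of 9 H3 promoters, but in 3 of 12 H4 promoters. The windows of head-to-head partners can overlap, so the same site can be counted for both genes. The counts are therefore of promoters and not of separate sites. The matches describe letters in the window and show no binding.

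How far a footprint can be assigned to one gene varied between the classes. Footprints are short, so each coding sequence was cut into overlapping words of 28 bases. The share found in no GENCODE transcript of any other gene was taken. Such transcripts include those of overlapping genes and of genes without an entry here, such as Hist1h2ap, which holds every word of Hist1h2ao. The median share was 81.6% in H1, 10.6% in H2A, 13.7% in H2B, 10.8% in H3 and 19.1% in H4. Of the 62 genes with a coding sequence, 10 had no private word at all and 42 had fewer than 25%, whereas 10 had over 60%. Hist1h1t (100%), Hist1h1a (99.2%) and Hist4h4 (97.5%) were nearly wholly private. The coding sequences of Hist1h4m and Hist1h4n shared every word, although their deposited levels were far apart. RSEM splits shared reads by estimate, and 61 of the 63 genes had fractional counts in all 4 footprint libraries. The annotation it used is not given, so the share of private words is only a guide to that split. Values of single genes in H2A, H2B, H3 and H4 are therefore estimates that depend on that split. In addition, 22 genes overlapped exons of another annotated gene, 6 of them on the same strand, among them Hist3h2a with Trim17 and Hist1h1e with Hist1h2be.

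**Figure D1:**
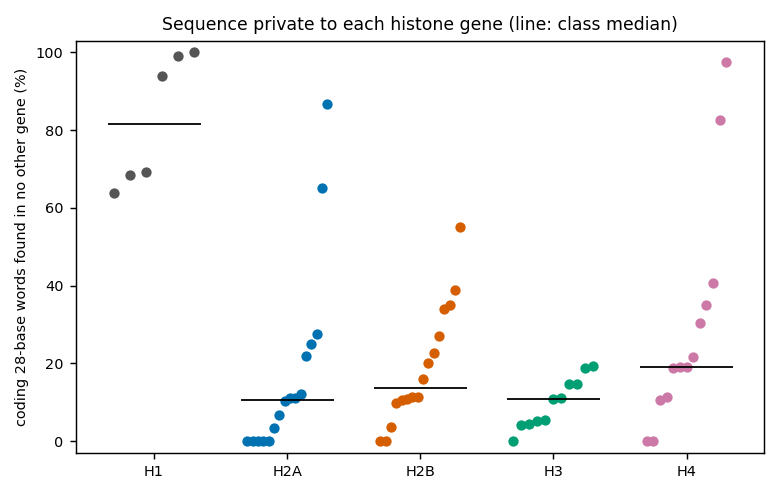
Share of each gene's 28-base coding words found in no other gene (y axis, percent) for the 5 histone classes, one point per gene and a line at the class median. The H1 genes stand at 63.8% or above, and the medians of the other classes lie between 10.6% and 19.1%.

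Footprint levels spanned more than 2 orders of magnitude between the histone genes, with H4 genes at the top. Per length, as mean deposited TPM over the 4 footprint libraries, Hist1h4n led at 8793, followed by Hist1h4j at 6706, Hist1h4f at 4812, Hist2h2bb at 4403 and Hist1h3c at 3941. In all, 35 genes averaged at least 1000 TPM and 8 fewer than 100. The class medians of these levels were 1526 TPM in H1, 1367 in H2A, 399 in H2B, 1438 in H3 and 2957 in H4. The lowest levels were those of Hist1h1t at 29.8 TPM and Hist1h2ba at 32.7 TPM, which encode testis forms of H1 and H2B, and of the pseudogene entry Hist3h2bb-ps at 41.6 TPM. The replacement histone H2afz, which is made outside S phase as well, averaged 2067 TPM in KO and 2670 TPM in WT.

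**Figure D2:**
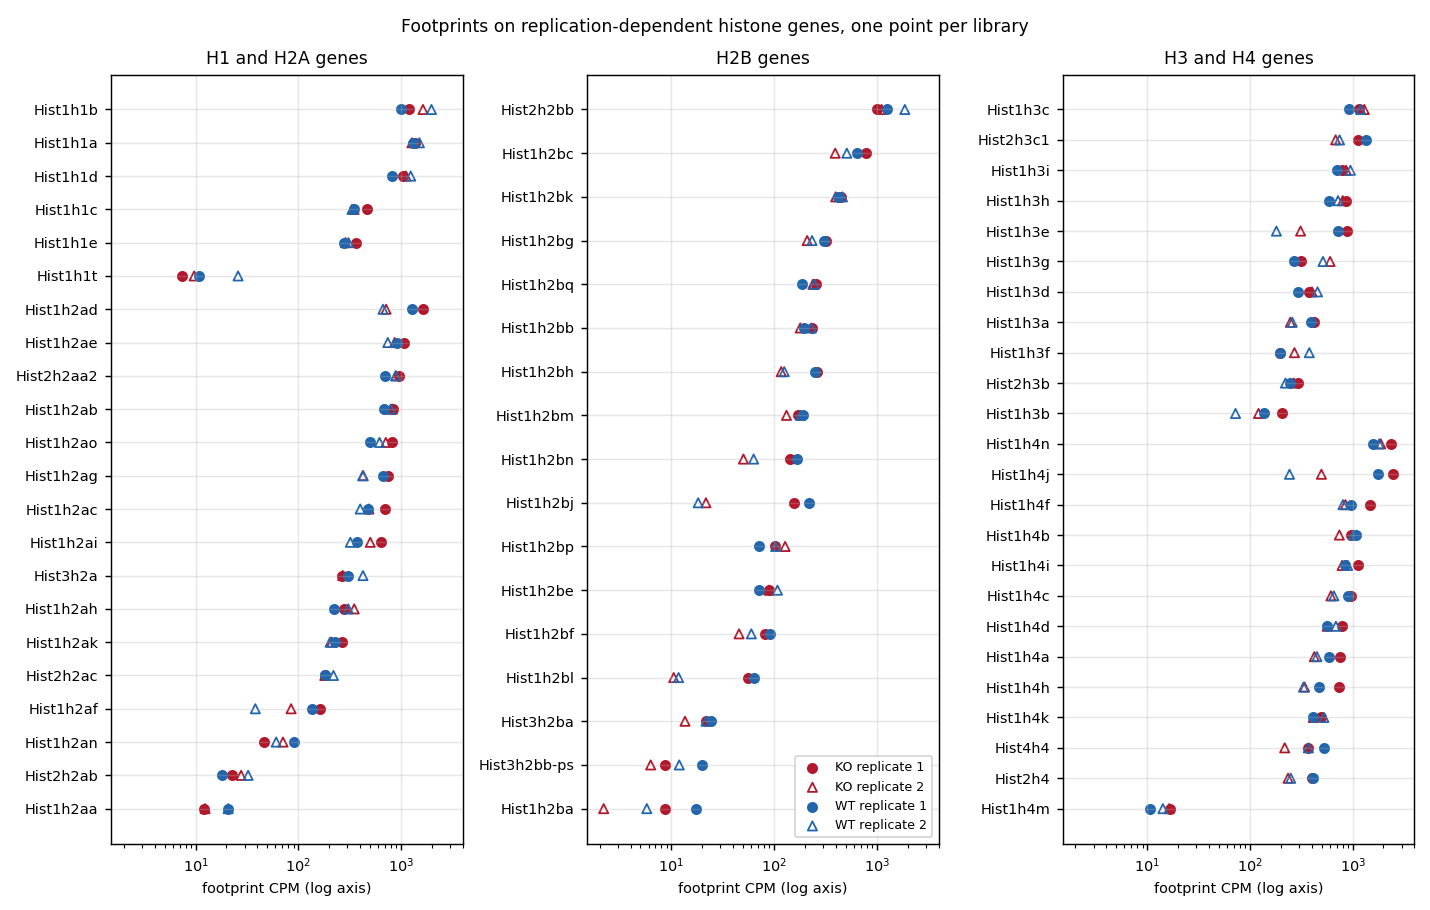
Footprint level of each of the 63 genes (x axis, CPM, log scale), with filled circles for replicate 1 and open triangles for replicate 2, red for KO and blue for WT. In most rows the symbols of a genotype are as far apart as the 2 colours, and in Hist1h4j, Hist1h2bj, Hist1h3e and Hist1h2bl the circles of both genotypes lie well to the right of the triangles.

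The question of the comparison is whether ribosomes occupy histone mRNAs differently without METTL5. In footprints, fitted without a replicate block, no histone gene passed the test. Of the 63 genes, 0 were called by the edgeR quasi-likelihood test at an adjusted p below 0.05, against 301 of 12315 genes tested overall (2.44%, with 1.83% higher and 0.617% lower). An unadjusted p below 0.05 was reached by 9, against 19.4% of all genes tested. DESeq2 called 1, Hist1h2ai, against 3.04% of all genes tested, and with no filter on low counts edgeR called 8, 2 higher and 6 lower, against 6.41% of all genes. Log2 fold changes were positive in 38 genes and negative in 25, with a median of 0.031, against 0.006 over all genes tested. They lay within 0.3 of 0 in 40 genes, at 0.5 or beyond in 10 and at 1 or beyond in 3. A p that misses the threshold does not show that a gene was unchanged. In bulk footprints, fewer cells in S phase and fewer histone footprints per cell cannot be told apart.

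KO and WT libraries overlapped for most histone genes. Both KO libraries lay above both WT libraries in 10 genes and below them in 7, against 24.3% and 25.5% of all genes tested, and 46 genes overlapped. The median fold change was 0.014 in H1, 0.21 in H2A, -0.22 in H2B, 0.24 in H3 and 0.15 in H4, in log2 units. Fold changes were positive in 12 of 16 H2A, 9 of 11 H3 and 9 of 13 H4 genes, and negative in 12 of 17 H2B genes. These medians are descriptions, since neighbouring genes of a class share reads.

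**Figure D3:**
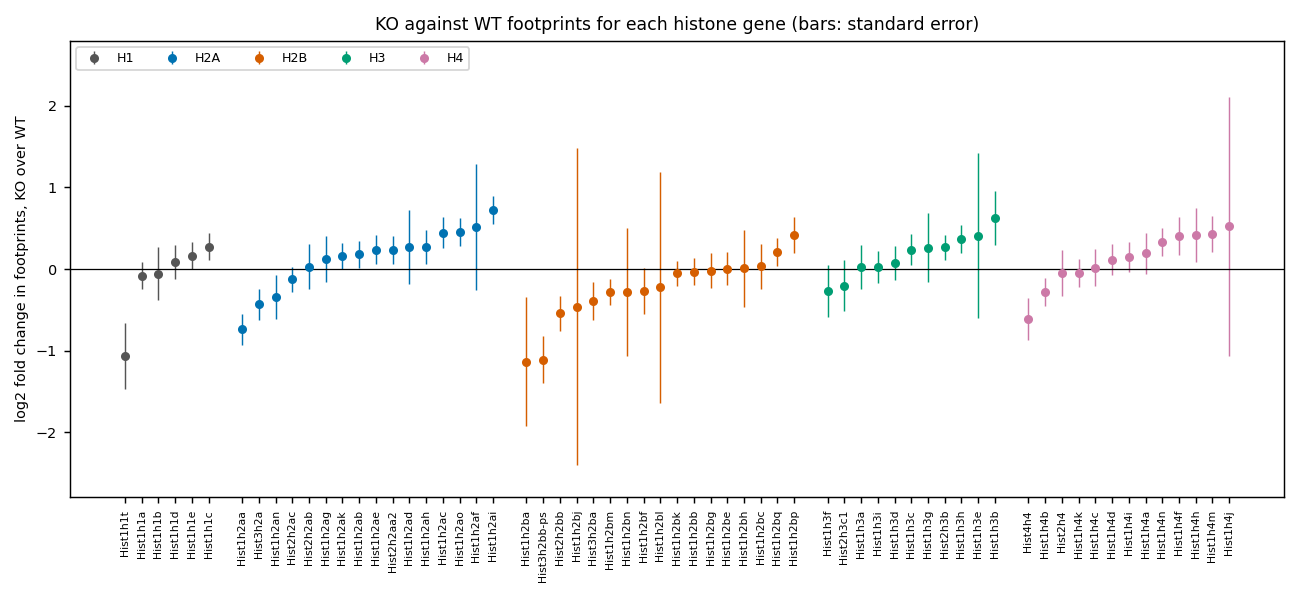
Log2 fold change of footprints, KO over WT (y axis), for each histone gene, ordered within its class, with bars of 1 standard error. Most points lie within 0.3 of 0, the lowest are Hist1h2ba, Hist3h2bb-ps and Hist1h1t, and the widest bars belong to genes whose replicates lie far apart, such as Hist1h2bj and Hist1h4j.

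Among the linker histones, whose reads are largely their own, no subtype passed the test without a replicate block. Hist1h1b, the most abundant in CPM, stood at 1193 and 1642 CPM in KO, against 1011 and 1986 CPM in WT (log2 fold change -0.058, SE 0.32, adjusted p = 0.946). The WT libraries lay on either side of the KO libraries. Hist1h1a stood at 1359 and 1281 CPM in KO, against 1305 and 1516 CPM in WT (-0.083, SE 0.16, adjusted p = 0.832). Hist1h1c, a widely expressed subtype, stood at 468 and 350 CPM in KO, against 346 and 334 CPM in WT (0.27, SE 0.17, adjusted p = 0.419). Its KO libraries were the higher ones, KO replicate 2 only just. The testis subtype Hist1h1t stood at 7.40 and 9.70 CPM in KO, against 10.7 and 26 CPM in WT (-1.06, SE 0.40, adjusted p = 0.208). Its groups did not overlap, and WT replicate 2 was far above the other libraries. Without WT replicate 1, Hist1h1t passed the test (-1.57, adjusted p = 9.38e-05), and without WT replicate 2 it had a fold change of -0.31 (0.632).

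The H2A genes held the highest fold change of the set, and 4 of the 16 had negative ones, the lowest in a testis form. Hist1h2ai had the highest, with 643 and 503 CPM in KO, against 374 and 322 CPM in WT (log2 fold change 0.73, SE 0.17, adjusted p = 0.0626). Both KO libraries lay above both WT libraries. The adjusted p of Hist1h2ai was below 0.05 with DESeq2 (0.0142), and in edgeR with no filter (0.00278) or a replicate block (2.00e-07). These settings called 3.04%, 6.41% and 24% of all genes tested. It stayed above 0.05 with RLE size factors (0.0634), a mean count of at least 50 (0.0741) and limma on TPM (0.114). When 1 library was left out, the log2 fold change of Hist1h2ai ranged from 0.59 to 0.86. Only 6.61% of its 28-base words were private, and it shared 86.5% with Hist1h2ah, which stood at 282 and 351 CPM in KO, against 224 and 307 CPM in WT (0.27, SE 0.20, adjusted p = 0.520). The most abundant H2A gene, Hist1h2ad, stood at 1653 and 718 CPM in KO, against 1292 and 670 CPM in WT (0.27, SE 0.45, adjusted p = 0.805). Replicate 1 exceeded replicate 2 by a ratio of 2.303 in KO and 1.93 in WT. Hist1h2ae stood at 1077 and 870 CPM in KO, against 917 and 746 CPM in WT (0.24, SE 0.18, adjusted p = 0.518), and its groups overlapped. At the other end, Hist1h2aa, the testis form TH2A, stood at 12.1 and 12.4 CPM in KO, against 20.6 and 20.8 CPM in WT (-0.74, SE 0.19, adjusted p = 0.0864). Its replicates lay close together, its groups did not overlap, and 86.7% of its words were private.

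H2B was the class with more negative fold changes. Hist2h2bb, which held 33.3% of the H2B footprints, stood at 1009 and 1114 CPM in KO, against 1248 and 1877 CPM in WT (log2 fold change -0.54, SE 0.22, adjusted p = 0.216). Both KO libraries lay below both WT libraries. Without WT replicate 1 it passed the test (-0.80, adjusted p = 0.00948), and without WT replicate 2 it had -0.23 (adjusted p = 0.597). Hist1h2bc stood at 786 and 394 CPM in KO, against 642 and 511 CPM in WT (0.031, SE 0.28, adjusted p = 0.966), and no private word distinguishes it. Hist1h2bp had the highest fold change of the class, with 102 and 128 CPM in KO, against 71.0 and 104 CPM in WT (0.42, SE 0.22, adjusted p = 0.340). Its groups overlapped. Hist1h2ba, the testis form TH2B and the head-to-head partner of Hist1h2aa, stood at 8.76 and 2.19 CPM in KO, against 17.5 and 5.76 CPM in WT (-1.14, SE 0.80, adjusted p = 0.520). Replicate 1 exceeded replicate 2 by a ratio of 3.998 in KO and 3.04 in WT, and the groups overlapped. The 3 testis forms, grouped after their values were seen, all had negative fold changes at low levels. None passed the test without a replicate block. With the block all 3 passed it (edgeR adjusted p = 2.15e-06 for Hist1h1t, 0.000196 for Hist1h2aa and 3.74e-05 for Hist1h2ba). They also passed with no filter on low counts. These settings called 24% and 6.41% of all genes tested.

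The H3 and H4 genes had mostly small positive fold changes. Hist1h3c, the most abundant H3 gene, stood at 1162 and 1299 CPM in KO, against 913 and 1198 CPM in WT (log2 fold change 0.24, SE 0.19, adjusted p = 0.547). Hist2h3c1 stood at 1134 and 684 CPM in KO, against 1349 and 746 CPM in WT (-0.20, SE 0.31, adjusted p = 0.779). Both overlapped between genotypes. Hist1h3b had the highest fold change of the class, with 204 and 121 CPM in KO, against 138 and 72.4 CPM in WT (0.62, SE 0.33, adjusted p = 0.368). It passed the test without WT replicate 1 (1.17, adjusted p = 0.00335). Hist1h3f had the lowest, with 197 and 271 CPM in KO, against 196 and 379 CPM in WT (-0.27, SE 0.32, adjusted p = 0.706).

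Hist1h4n, the gene with most footprints, stood at 2381 and 1880 CPM in KO, against 1595 and 1814 CPM in WT (log2 fold change 0.33, SE 0.17, adjusted p = 0.343). Its KO libraries lay above its WT libraries, KO replicate 2 only just. Hist1h4j stood at 2452 and 497 CPM in KO, against 1782 and 243 CPM in WT (0.52, SE 1.59, adjusted p = 0.909). Replicate 1 exceeded replicate 2 by a ratio of 4.93 in KO and 7.34 in WT, and the groups overlapped. Hist4h4, which lies alone on chromosome 6 and is 97.5% private, stood at 371 and 218 CPM in KO, against 532 and 371 CPM in WT (-0.61, SE 0.25, adjusted p = 0.234). The higher KO and the lower WT library were level. The median fold change of the 541 tested genes of chromosome 6 was -0.38 and that of the 1010 tested genes of chromosome 11 was -0.25, against 0.08 on chromosome 13 and 0.06 on chromosome 3. With these medians removed, Hist4h4 stood at -0.23. On chromosome 11, Hist3h2a stood at -0.18, against -0.43 before, and Hist3h2bb-ps at -0.86, against -1.11 before.

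Replicates of one genotype differed more than the genotypes did for most histone genes. On log2(CPM + 0.5), the larger of the 2 replicate differences exceeded the difference between the KO and WT means in 56 of 63 genes, against 61.6% of all genes tested. The median absolute difference between replicates was 0.42 in KO and 0.45 in WT for histone genes, against 0.22 and 0.25 for all genes tested. The median absolute difference between KO and WT was 0.23 for histone genes and 0.25 for all genes tested. The spread between libraries was larger than that of a typical gene, while the genotype difference was of ordinary size.

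The replicate difference ran the same way in KO and WT for 46 of the 63 histone genes, against 64.6% of all genes tested. In 25 genes both replicate 1 libraries lay above both replicate 2 libraries, and in 10 they lay below. The same count was not made over all genes tested, so these counts are descriptions only. In 6 genes the replicates differed 2-fold or more in both genotypes, each time with replicate 1 the higher, against 0.528% of all genes tested. These were Hist1h2ba, Hist1h2bj, Hist1h2bl, Hist1h2bn, Hist1h3e and Hist1h4j, all on chromosome 13. Hist1h2bj stood at 156 and 21.7 CPM in KO, a ratio of 7.18, and at 220 and 18.2 CPM in WT, a ratio of 12.1. Hist1h3e stood at 890 and 311 CPM in KO, against 715 and 181 CPM in WT. The labels do not say what a replicate number stands for. The deposited names give KO and WT footprint libraries of the same number a common date-like tag, whose meaning is not stated.

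**Figure D4:**
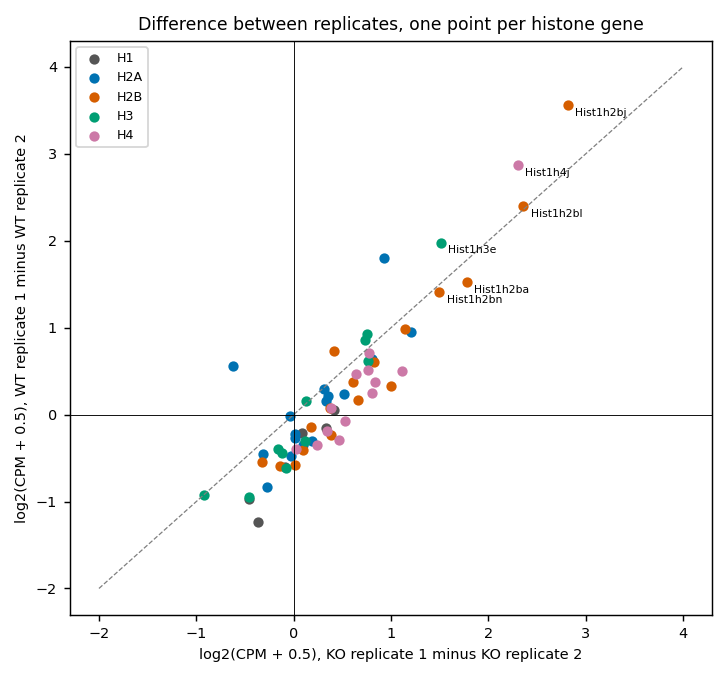
Difference between replicate 1 and replicate 2 on log2(CPM + 0.5) in KO (x axis) and in WT (y axis), one point per histone gene, coloured by class, with a dashed line of equality. The named points differ 2-fold or more in both genotypes, and all 6 lie in the upper right, with replicate 1 the higher.

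Sums over a class do not depend on how shared reads were split within it, and 3 of the 5 overlapped between genotypes. The difference of mean log2 levels, KO minus WT, was 0.014 in H1, 0.23 in H2A, -0.22 in H2B, 0.12 in H3 and 0.13 in H4. The H1 sum was 4442 and 4691 CPM in KO, against 3770 and 5417 CPM in WT. The H2A sum was 8674 and 6656 CPM in KO, against 6808 and 6181 CPM in WT. The H2B sum was 4155 and 3153 CPM in KO, against 4185 and 4275 CPM in WT. H1, H2A and H4 overlapped between the genotypes, whereas both KO libraries lay below both WT libraries in H2B and above them in H3, by small margins in 1 library each. The H3 sum was 6662 and 5875 CPM in KO, against 5806 and 5702 CPM in WT. The H4 sum was 12935 and 7592 CPM in KO, against 10150 and 8065 CPM in WT. Leaving out 1 library turned the sign of the H1 and H4 differences, and without Hist2h2bb the H2B difference was -0.067. All 63 genes together averaged 32417 ± 6295 CPM in KO and 30180 ± 762 CPM in WT (SD, n = 2 each).

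The ratio of H2A to H2B footprints separated the genotypes, a comparison chosen after the values were seen. It was 2.09 and 2.11 in KO, against 1.63 and 1.45 in WT. Without Hist2h2bb, the most abundant H2B gene, it was 2.76 and 3.26 in KO, against 2.32 and 2.58 in WT, still without overlap. No test was made, because the ratio was chosen from its values. Within the 11 head-to-head pairs, the H2A fold change exceeded that of its H2B partner in 10. The largest gap was that of the pair whose shared promoter is printed above, Hist1h2ai at 0.73 and Hist1h2bl at -0.22. Hist1h2aa at -0.74 and Hist1h2ba at -1.14 were both negative, as were Hist3h2a at -0.43 and the pseudogene Hist3h2bb-ps at -1.11. The exception to the order was Hist1h2an at -0.34 with Hist1h2bp at 0.42. The pairs and the sums hold the same genes and are not independent of each other. The ratio of H3 to H4 overlapped, at 0.515 and 0.774 in KO and 0.572 and 0.707 in WT.

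**Figure D5:**
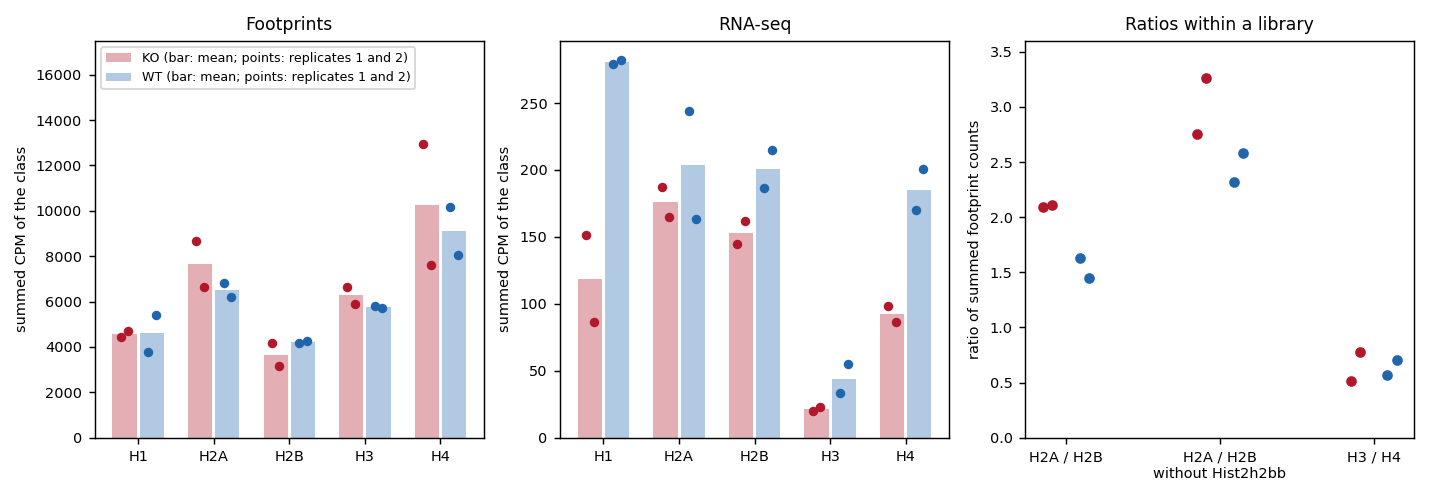
Summed level of each histone class in footprints (left, CPM) and in RNA-seq (centre, CPM), with bars for the mean of 2 libraries and a point per library, and ratios of summed footprint counts within a library (right), KO in red to the left of WT in blue. The H2A to H2B ratio is 2.09 and 2.11 in KO and 1.63 and 1.45 in WT, and the RNA-seq sums of H1 and H4 are lower in both KO libraries.

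In RNA-seq, histone genes were barely counted. All 63 together took 602 and 523 CPM in KO, against 913 and 916 CPM in WT, levels far under their 27966 to 36868 CPM in footprints. Of the 63 genes, 18 had no RNA-seq count in any library, 9 had counts in all 4, and the highest count of a gene in a library was 28.6. The labels do not say whether the RNA was selected by its poly(A) tail. The filter on low counts left 6 genes, and 0 were called, against 133 of 2087 tested (6.37%, with 3.69% higher and 2.68% lower), while 1 had an unadjusted p below 0.05, against 23.1% of all genes tested. DESeq2 called 0 as well, against 3.59% of all genes tested. With no filter, 45 of the genes were tested and edgeR called 2, 1 higher and 1 lower, against 1.29% of all genes. The 6 had a median log2 fold change of -0.54, against 0.012 over all genes tested, but a gene could pass the filter through the WT libraries alone, so this median supports no direction.

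The summed RNA-seq counts of histone genes were lower in both KO libraries. They were 91.6 and 90.6 in KO, against 193 and 201 in WT. Pooled and scaled to the library totals, the ratio of KO to WT was 0.611, with an exact 95% interval of 0.510 to 0.731 that covers counting error only. For H1 the sum was 151 and 86.5 CPM in KO, against 279 and 282 CPM in WT, a ratio of 0.416 (0.281 to 0.603). For H4 it was 98.6 and 86.5 CPM in KO, against 170 and 200.4 CPM in WT, a ratio of 0.496 (0.315 to 0.764). The ratios of H2A (0.867), H2B (0.761) and H3 (0.488) had intervals that include 1. No test was made over the sums, and the interval leaves out the spread between libraries. The 10 mESC markers were low in the same KO libraries, with summed counts of 40.0 and 50.7 in KO, against 138 and 147 in WT, or 263 and 292 CPM in KO, against 653 and 669 CPM in WT. Klf4 was at 0 counts in both KO libraries and in 1 WT library, and Esrrb and Utf1 were at 0 in 1 KO library each, Utf1 also in 1 WT library. The ratio of the summed markers, KO to WT, was 0.421, and 1 of the 4 tested, the Nodal co-receptor gene Tdgf1, fell, with 2 and 2 counts in KO, against 20 and 15 counts in WT (log2 fold change -2.76, SE 0.74, edgeR adjusted p = 0.0490). The ratio was 0.570 for the listed histone variants and 0.617 for the histone mRNA factors described below, 1.17 for histone chaperones and 1.02 for S-phase genes. The factor sums were 65.9 and 55.2 counts in KO, against 145 and 115 counts in WT. Of these, Ssb alone held 3 and 1 counts in KO, against 50 and 36 counts in WT, so the 0.617 does not describe the list as a whole. The part of these shifts in the histone result was not tested. Of single genes, Hist1h1c had 2.77 and 2 counts in KO, against 28.6 and 11.2 in WT. Its 28.6 counts in WT replicate 1 were the highest of any histone gene. The filter on low counts removed it from the main fit. With no filter it was the 1 histone gene called lower by edgeR, where 1.29% of all genes were called. Hist1h1d had 2.42 and 7.01 counts in KO, against 12.04 and 13.9 in WT (log2 fold change -1.20, SE 0.72, edgeR adjusted p = 0.364).

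Translational efficiency, the footprints of a gene relative to its RNA-seq counts, could be tested for the same 6 genes, and 1 of them was called, higher in KO. The test asks in a single edgeR fit whether the genotype difference depends on the assay, and it called 135 of 1458 genes (9.26%, with 4.73% higher and 4.53% lower). Hist2h2aa2, an H2A gene of the chromosome 3 cluster, had a log2 difference of 2.99 (SE 0.76, adjusted p = 0.0330). Its footprints stood at 956 and 895 CPM in KO, against 696 and 889 CPM in WT (log2 fold change 0.24, SE 0.17, adjusted p = 0.509). Its RNA-seq counts were 3.11 and 0 in KO, against 11.8 and 13.1 in WT (-2.65, SE 1.003, adjusted p = 0.141). The call therefore rested on RNA-seq counts of at most 13.1, for a gene with no private 28-base word. Hist2h2aa2 could pass the RNA-seq filter through its WT libraries alone, so the call supports no direction. Of the 4 mESC markers tested, 3 were called higher as well. It was lost without KO RNA-seq replicate 2 (2.09, adjusted p = 0.0951), without WT footprint replicate 1 (0.0601), without KO footprint replicate 1 (0.0892) or 2 (0.0839), and with no filter on low counts (0.0544). Without WT RNA-seq replicate 2 the gene was not tested, and without KO RNA-seq replicate 1 the remaining KO library had 0 counts, so that the fitted difference is no bound. The other 5 genes, Hist1h1a, Hist1h1d, Hist1h1e, Hist1h2bc and Hist2h2ac, were not called, with Hist1h1d at 1.33 (SE 0.60, adjusted p = 0.196).

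No listed gene that acts on histone mRNA or histone protein was called in footprints without a replicate block, where 2.44% of all genes tested were called. Of 24 listed genes of histone transcription and 3' processing, 23 were tested, 0 were called, and 19 had negative fold changes, with a median of -0.15. Slbp, whose protein binds the stem loop, stood at 203 and 197 CPM in KO, against 262 and 256 CPM in WT (log2 fold change -0.36, SE 0.14, adjusted p = 0.219). Both KO libraries lay below both WT libraries, as in 25.5% of all genes tested. Npat, the S-phase coactivator of histone genes, stood at 28 and 27 CPM in KO, against 21.3 and 28.8 CPM in WT (0.15, SE 0.20, adjusted p = 0.737). Of 26 histone chaperones, 0 were called and 23 had negative fold changes (median -0.19). Of 27 S-phase genes, 0 were called and 20 had negative fold changes (median -0.21). Both KO libraries lay below both WT libraries in 12 of the factors, 11 of the chaperones and 12 of the S-phase genes. They lay above them in 0, 0 and 1, against 25.5% lower and 24.3% higher over all genes tested. The lists share Slbp. The median over all genes tested was 0.006, and 49.2% of them had negative fold changes.

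The histone variants encoded outside these clusters, most of them replacement histones, gave a mixed picture. Of 11 tested in footprints, 0 were called, against 2.44% of all genes tested. Fold changes were positive in 5 and negative in 6, and the median was -0.10. H2afz stood at 1270 and 1485 CPM in KO, against 1701 and 1841 CPM in WT (log2 fold change -0.35, SE 0.18, adjusted p = 0.329). H2afx, the variant phosphorylated at DNA breaks, stood at 320 and 244 CPM in KO, against 212 and 201 CPM in WT (0.46, SE 0.16, adjusted p = 0.171). The groups of neither gene overlapped, and of all genes tested 24.3% lay higher and 25.5% lower in KO without overlap. H3f3b, which with H3f3a encodes the replacement H3, stood at 376 and 376 CPM in KO, against 502 and 481 CPM in WT (-0.37, SE 0.15, adjusted p = 0.224), and H3f3a stood at 347 and 327 CPM in KO, against 291 and 312 CPM in WT (0.17, SE 0.15, adjusted p = 0.576). These genes lay in opposite directions, each without overlap and neither past the test.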

How the data were processed

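Estimated counts and TPM per gene were deposited for each of the 8 libraries. RSEM made both, per the file headers, and its expected counts divide reads that match several genes. Bowtie2 2.3.4.3 and the mm10 build stand in the submitters' processing notes, which give no role, and strand settings were not given. The labels' protocols name a small RNA kit.

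Expected counts were rounded and fitted over all genes with edgeR 4.0.16 (robust quasi-likelihood test, TMM, filterByExpr, Benjamini-Hochberg adjustment), genotype as the only term, footprints and RNA-seq apart. Translational efficiency was tested as an assay by genotype term over all 8 libraries, for genes kept by the filter in each assay. Standard errors came from the F statistics. CPM used unrounded counts. Each fit was checked on simulated counts in which 200 genes were changed. Replicates differed beyond sampling noise, with a chi-square per degree of freedom of 22.9 in KO and 26.1 in WT footprints and 3.87 in KO and 10.3 in WT RNA-seq.

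Members and lists were chosen with earlier results of these data known. Named genes are members called in any comparison and, per class, the 2 with most footprints and those with the highest and lowest fold change, plus Slbp, Npat, H2afz, H2afx, H3f3a, H3f3b, Mettl5 and called list members. Hist1h1d, Hist1h2ah, Hist1h2an, Hist1h2bj, Hist1h2bl, Hist1h3e, the other genes with 2-fold replicate differences and the chromosome 11 genes were chosen with their values known. Alternatives were DESeq2 1.42.0, limma 3.58.1 on log2(TPM + 1), RLE size factors, a replicate block, no filter, a minimum mean count of 50, removed chromosome medians, class sums and leaving out each library.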

Additional observations from a re-analysis of the deposited data

How the results depend on the processing

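With the replicate number as a block in the footprint fit, 21 histone genes were called, 11 higher and 10 lower, against 24% of all genes tested, and 0 without it. The block called 12 of the 27 named genes that the fit without it did not. These were Hist1h1t, Hist1h2ai, Hist1h2aa, Hist2h2bb, Hist1h2bp, Hist1h2ba, Hist1h3b, Hist1h4j, Hist4h4, Slbp, H2afx and H3f3b. The count of calls was 0 in RNA-seq and 1 in translational efficiency with or without it. Of the lists, the block called 7 of 23 histone mRNA factors, 5 of 26 chaperones and 9 of 27 S-phase genes lower. It called 0, 1 and 0 of them higher, against 11.3% lower and 12.7% higher over all genes tested. Of the 11 histone variants, 2 were called higher and 2 lower with the block. Same-numbered KO and WT footprint libraries carry a common date-like tag in their deposited names. Since no label says that the number or the tag marks a day or batch, the main values are those without the block. Differences between replicates 1 and 2 correlated between KO and WT by 0.433 over the genes tested in footprints, by 0.919 over the 63 histone genes and by 0.054 in RNA-seq; genes are not independent replicates, and the points share libraries.

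Other settings changed the footprint count to 1 with DESeq2, where 3.04% of all genes were called, and to 8 with no filter, 2 higher and 6 lower, where 6.41% of all genes were called, while RLE size factors, a mean count of at least 50 and limma on TPM gave 0. Leaving out 1 library gave 0 to 6 calls, the 6 without WT replicate 1, where 6.04% of all genes were called, and medians from -0.084 to 0.22, the highest without KO replicate 2. The median was -0.032 with chromosome medians removed and 0.12 with 1 value per class sum. With no filter, 45 members were tested in RNA-seq and in translational efficiency. In each, 1 was called higher and 1 lower, Hist1h1c and Hist2h2ab in both, against 1.29% of all genes in RNA-seq and 0.77% in translational efficiency. When 1 library was left out, the RNA-seq medians ranged from -1.65 to -1.03, over the 4 to 9 members that were tested. A mean count of at least 50 left no member in RNA-seq or in translational efficiency. When 1 library was left out, the log2 difference of class sums ranged from -0.25 to 0.28 in H1, 0.037 to 0.42 in H2A, -0.42 to -0.026 in H2B, 0.030 to 0.21 in H3 and -0.25 to 0.52 in H4, so that H1 and H4 changed sign. Without Hist2h2bb it was -0.067 in H2B, and without Hist1h4j it was 0.092 in H4.

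Of the named genes, Hist1h2bc changed sign with the block (-0.027) and with limma on TPM (-0.050). When 1 library was left out, fold changes crossed 0 for Hist1h1b (-0.46 to 0.50), Hist1h1a (-0.18 to 0.022), Hist1h2ad (-0.39 to 0.82), Hist1h2bc (-0.49 to 0.42), Hist2h3c1 (-0.57 to 0.29), Hist1h3f (-0.67 to 0.27), Hist1h4j (-0.97 to 2.59) and Npat (-0.047 to 0.38). The cause was not tested. With 2 libraries a group and few RNA-seq counts, small differences were not detectable at this depth.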

Other observations

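Among the histone mRNA factors, 4 genes chosen after their values were seen had the lowest footprint fold changes or known roles beside the stem loop. Eri1, the exonuclease that trims the 3' end of histone mRNA, stood at 43.0 and 45.6 CPM in KO, against 67.8 and 71.8 CPM in WT (log2 fold change -0.64, SE 0.16, edgeR adjusted p = 0.0826). Lsm11, a subunit of the U7 particle that cuts histone precursors, stood at 7.10 and 6.73 CPM in KO, against 11.9 and 10.0 CPM in WT (-0.65, SE 0.23, adjusted p = 0.171). Coil, the scaffold of Cajal bodies, stood at 51.7 and 51.8 CPM in KO, against 74.5 and 66.1 CPM in WT (-0.43, SE 0.16, adjusted p = 0.197). Ssb, the La RNA-binding protein, stood at 381 and 383 CPM in KO, against 537 and 553 CPM in WT (-0.50, SE 0.15, adjusted p = 0.126). In each of the 4 both KO libraries lay below both WT libraries, as in 25.5% of all genes tested. None passed the test in footprints without a replicate block. With the block, the edgeR adjusted p was 7.69e-06 for Eri1, 0.0174 for Lsm11, 0.00436 for Coil and 0.000701 for Ssb. Ssb differed in the RNA-seq libraries, where it fell, with 3 and 1 counts in KO, against 50 and 36 counts in WT (-4.05, SE 0.64, adjusted p = 0.00658). Its translational efficiency was called higher in KO (3.63, SE 0.57, adjusted p = 0.00557), a call that rests on those RNA-seq counts.

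The entry below the minimum count, Hist2h2be, an H2B gene, had 2.85 and 4.33 RNA-seq counts in KO, against 0 and 1.10 in WT. Its summed footprint count of 15.1 over 4 libraries stands beside sums of 339 to 75720 for the genes kept.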
